A study of Rattus norvegicus with 40 samples.

Results

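Expression of 5 genes of the IGF1, insulin and mTOR signalling pathway was described in 2 skeletal muscles of aged rats. The genes were taken as the rows of the count table with listed Ensembl rat identifiers, a rule that uses no measured value, although the list was drawn up with earlier results of these data known. They were Igf1 (ENSRNOG00000004517), Igf1r (ENSRNOG00000014187), Irs1 (ENSRNOG00000014597), Akt1 (ENSRNOG00000028629) and Mtor (ENSRNOG00000009615), 5 of the 32545 genes in the table. All 5 were found, and all 5 were among the 12980 genes that reached 1 CPM, a count scaled to the total of its library, in at least 10 of the 40 libraries.

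The libraries came from gastrocnemius, the large calf muscle of the hind limb, and from triceps, the elbow extensor of the fore limb, of 20 male Wistar rats. Of these animals 10 were aged 20 months and 10 others were aged 22 months. For its rat gastrocnemius data the study places these ages in an early sarcopenic and a sarcopenic phase, and it gives no phase for triceps. Each rat gave 1 library per muscle, so that there were 4 groups of 10 libraries, and the labels name no treatment or genetic change in any group. Wistar is an outbred stock, the ages are different animals rather than the same animals followed over time, and no young adult is among these libraries.

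Total counts lay between 10983887 and 68580194 per library, and the most similar pair of libraries within a group had a chi-square of 9.37 per gene, more than sampling noise gives. On the first principal component (PC1, 35.1% of the variance of log2 CPM) the muscles were separated apart from replicate 7 of triceps at 20 months. At 10.9 it lay within the gastrocnemius range of -2.24 to 62.6. The separation was narrow for replicate 10 of triceps at 20 months, at -4.45, which was kept throughout. Results that include the triceps library of replicate 7 are given with and without it where it matters. Muscle and cell type markers were not analysed here, because the table holds identifiers without symbols.

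IGF1 is a peptide hormone made by the liver and, for local use, by muscle and its connective tissue cells. It binds the IGF1 receptor, a tyrosine kinase at the cell surface, which like the insulin receptor phosphorylates the adaptor IRS1. Phosphorylated IRS1 recruits phosphoinositide 3-kinase, the kinase AKT1 is activated, and AKT1 in turn raises the activity of mTOR, which drives protein synthesis and restrains autophagy. In skeletal muscle this chain is known for its part in fibre growth and in glucose uptake. Most of its regulation is by phosphorylation, which transcript counts do not measure.

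The regions upstream of Igf1, Igf1r and Irs1 are shown first, as the ligand, receptor and adaptor whose correlations with each other across animals are given further on. Each sequence is the 250 bases before the start that RefSeq gives on the rat assembly GRCr8, matched by symbol, 5′ to 3′ on the strand of the gene. Capitals mark matches to 6 motifs searched on both strands, and none of the matches overlap in these 3 windows.
Igf1, chr7:24172282-24172531, plus strand: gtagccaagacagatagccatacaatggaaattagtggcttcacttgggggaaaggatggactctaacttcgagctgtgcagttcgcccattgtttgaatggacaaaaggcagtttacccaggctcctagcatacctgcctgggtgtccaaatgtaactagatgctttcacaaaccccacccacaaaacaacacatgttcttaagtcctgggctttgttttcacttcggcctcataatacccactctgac
Igf1r, chr1:130959747-130959996, plus strand: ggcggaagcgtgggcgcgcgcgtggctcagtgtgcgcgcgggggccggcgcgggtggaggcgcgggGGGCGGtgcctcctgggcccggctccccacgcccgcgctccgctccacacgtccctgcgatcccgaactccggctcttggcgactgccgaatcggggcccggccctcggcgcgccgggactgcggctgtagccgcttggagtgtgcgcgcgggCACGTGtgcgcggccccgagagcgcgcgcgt
Irs1, chr9:91053960-91054209, minus strand: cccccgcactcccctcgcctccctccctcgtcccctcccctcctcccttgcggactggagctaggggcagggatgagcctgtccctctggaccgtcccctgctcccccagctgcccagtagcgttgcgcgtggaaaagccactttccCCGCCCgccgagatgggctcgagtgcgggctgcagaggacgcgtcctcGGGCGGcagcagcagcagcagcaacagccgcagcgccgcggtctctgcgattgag

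The 3 windows differed widely in base composition. The Igf1 window was 46.8% GC with 3 CpG dinucleotides, below the medians of 51.2% and 5 over 33469 rat promoter windows of this length. The Igf1r window was 79.6% GC with 45 CpG, a GC content above that of 98.8% of all windows, and the Irs1 window was 70.8% GC with 22 CpG. The capitals in Igf1r mark 1 GC box (GGGCGG, found in 30.5% of all windows) and 1 E box (CACGTG, 5.59%), and those in Irs1 mark 2 GC boxes. No match to these, to the CCAAT box (CCAAT, 34.0% of windows), the TATA box (TATAAA, 12.9%), the forkhead motif (GTAAACA, 3.21%) or the cyclic AMP response element (TGACGTCA, 1.59%) lay in the Igf1 window. The windows of the kinases, not printed, were 54.8% GC for Akt1 with no match, and 56.8% GC for Mtor with 4 GC boxes and 3 CCAAT boxes. A match is a description of letters and not a measured binding site.

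Levels are given as CPM after scaling each library with its TMM factor (trimmed mean of M values), which allows for differences in composition. Gene lengths were not used here, so levels are compared between groups and not between genes. In bulk muscle, fewer cells that make a transcript and less transcript per cell cannot be told apart.

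Igf1, the ligand, was the most variable member between animals. In gastrocnemius it lay between 8.37 and 33.0 CPM at 20 months (median 21.1) and between 6.82 and 25.3 CPM at 22 months (median 18.1). In triceps it lay between 6.66 and 30.6 CPM at 20 months (median 13.7) and between 8.03 and 22.9 CPM at 22 months (median 12.3). In each of the 4 groups the lowest library was replicate 3, and the highest triceps library of 20 months, at 30.6 CPM, was the replicate 7 that PC1 set apart, with the next of that age at 21.4 CPM. All 4 groups overlapped over most of their range. The coefficient of variation (CV, the SD as a percentage of the mean) was 44.6% and 34.8% in gastrocnemius at 20 and 22 months, and 45.5% and 36.6% in triceps. Counts of Igf1 were between 94 and 1163 per library, and counting error alone would give a CV of 4.94% to 6.97%. The spread of Igf1 was above that of 86.4% to 92.1% of the 12980 genes in each group.

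Igf1r, the receptor, had the lowest counts of the 5, between 48 and 664 per library. In gastrocnemius its lowest, median and highest values were 4.76, 6.31 and 8.37 CPM at 20 months, and 6.60, 7.73 and 11.1 CPM at 22 months. All 10 gastrocnemius libraries of 22 months were above the median of 20 months, and 5 of them were above its highest library. In triceps the values ran from 3.67 to 9.63 CPM at 20 months and from 3.08 to 9.05 CPM at 22 months, and these ranges overlapped nearly in full. The CV was 19.3% and 18.4% in gastrocnemius at 20 and 22 months, near the median of all genes of 18.6% and 18.1%, and 31.1% and 29.4% in triceps, where the medians were 18.5% and 16.99%.

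Irs1, the adaptor that carries the receptor signal to phosphoinositide 3-kinase, had the higher values in gastrocnemius. Its lowest, median and highest values there were 25.6, 32.9 and 71.1 CPM at 20 months, and 28.1, 34.2 and 61.1 CPM at 22 months. In triceps they were 14.8, 22.9 and 44.6 CPM at 20 months, and 20.0, 26.0 and 35.2 CPM at 22 months. All 10 gastrocnemius libraries were above the triceps median at each age, and 7 triceps libraries of 20 months and 6 of 22 months were below the lowest gastrocnemius library of their age. The highest gastrocnemius libraries were far from the rest. At 20 months replicates 8 and 7 were at 71.1 and 61.0 CPM, and at 22 months replicate 7 was at 61.1 CPM with the next library at 42.7 CPM.

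The kinases were steadier. Akt1, which relays the signal from the membrane to mTOR and to the FOXO factors, had 106, 120.3 and 142 CPM as its lowest, median and highest values in gastrocnemius at 20 months, and 103, 122 and 136 CPM at 22 months. In triceps the values were 96.3, 106 and 119 CPM, and 98.2, 108 and 128 CPM. Mtor, the kinase of both mTOR complexes, had 50.2, 58.9 and 73.0 CPM in gastrocnemius at 20 months, and 55.4, 64.6 and 74.8 CPM at 22 months. In triceps it had 56.9, 66.8 and 76.1 CPM, and 55.4, 71.3 and 78.4 CPM. The CV of Akt1 was between 6.48% and 12.65% and that of Mtor between 8.16% and 12.9%, in each of the 4 groups below the median of all genes. Akt1 in triceps at 20 months varied more than only 1.66% of genes did. Such ranks are over genes at all count levels, and the mean CPM of Akt1 and Mtor was above that of 91.7% and 84.2% of genes. Genes with similar counts were not compared.

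**Figure D1:**
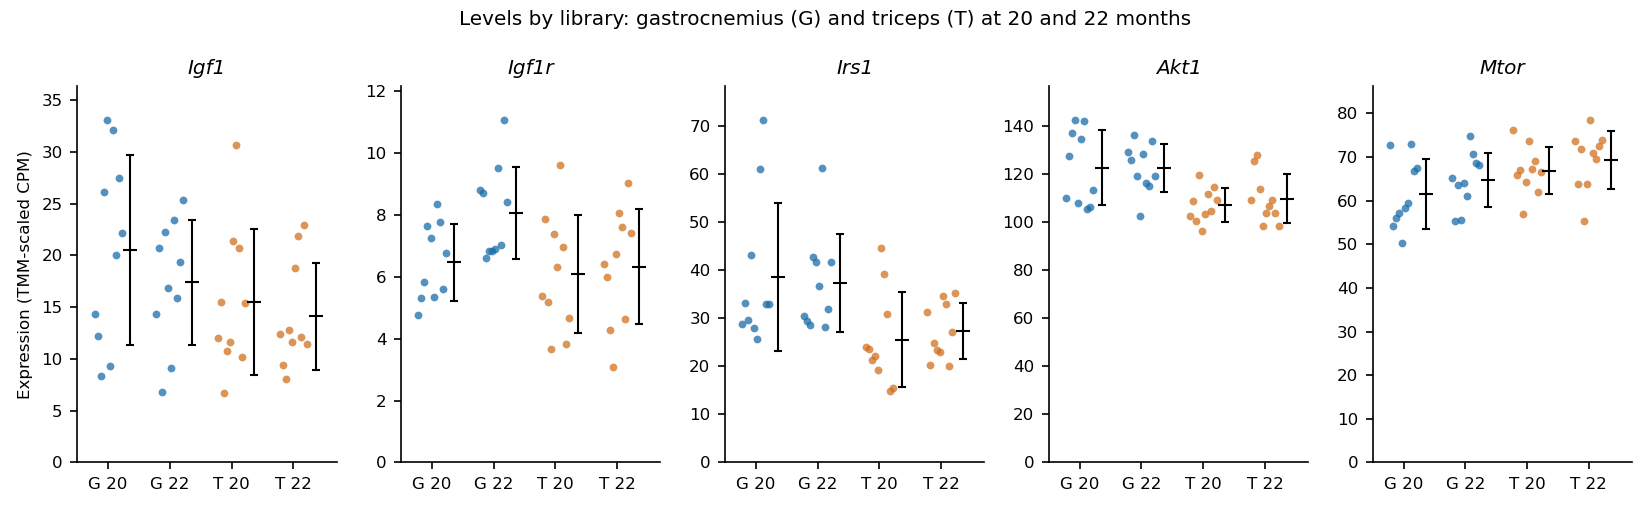
Expression of Igf1, Igf1r, Irs1, Akt1 and Mtor in TMM-scaled CPM (vertical axes, each from 0) in gastrocnemius (G, blue) and triceps (T, orange) at 20 and 22 months. Points are libraries, spread sideways in order of replicate, and bars give the mean and SD of 10 libraries; over the 4 groups the highest library was 2.85-fold to 4.60-fold above the lowest for Igf1, 1.75-fold to 3.02-fold for Irs1, and 1.24-fold to 1.45-fold for Akt1 and Mtor.

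To ask whether the pathway genes changed as the animals passed from 20 to 22 months, the ages were compared within each muscle. None of the 5 genes passed the test across all genes in either muscle. Calls were made at an adjusted p under 0.01 in the quasi-likelihood test of edgeR. In gastrocnemius 0 of 5 members were called, against a background of 0 of 12659 genes, or 0%. DESeq2 and limma-voom also called 0 of the 5, and 1 gene over the whole table was called by DESeq2.

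Igf1r had the largest age difference of the 5 in gastrocnemius, with a mean of 6.47 ± 1.25 CPM at 20 months and 8.07 ± 1.49 CPM at 22 months (SD, n = 10 each). Its log2 fold change was 0.33 ± 0.13 (SE), with a 95% interval of 0.06 to 0.59. The unadjusted p from edgeR was 0.0170 and the adjusted p was 0.420. It was the only member of the 5 below 0.05 without adjustment, a limit that 1308 of all genes, or 10.3%, passed. The adjusted p stayed between 0.199 and 0.702 under the alternatives tried.

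For the other 4 members in gastrocnemius the interval of the age difference included 0. Igf1 was at 20.5 ± 9.16 and 17.4 ± 6.05 CPM at 20 and 22 months (SD, n = 10 each), with a log2 fold change of -0.23 ± 0.27 (SE) and an interval of -0.80 to 0.33. Irs1 had -0.05 ± 0.19 (SE) and Mtor 0.08 ± 0.07 (SE). Akt1 had 0.01 ± 0.07 (SE) with an interval of -0.15 to 0.16, so that a fold change of more than 1.12 in either direction lay outside it. The adjusted p of these 4 was between 0.670 and 0.976. The median absolute log2 fold change of the 5 members was 0.08, and that of all 12659 genes was 0.11.

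In triceps 0 of 5 members were called, against 0 of 12345 genes, or 0%, by edgeR, DESeq2 and limma-voom, and 0 of the 5 had an unadjusted p under 0.05, as 1084 of all genes did by edgeR. The log2 fold change of Igf1 was -0.12 ± 0.24 (SE), from 15.5 ± 7.04 to 14.1 ± 5.17 CPM (SD, n = 10 each). Those of Igf1r, Irs1, Akt1 and Mtor were 0.07 ± 0.19, 0.09 ± 0.18, 0.04 ± 0.06 and 0.06 ± 0.06 (SE). Without replicate 7 of 20 months there was still no call, and the log2 fold change of Igf1 turned to 0.05.

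Whether age acted differently on the 2 muscles was tested as an interaction of age and muscle over all 40 libraries. This fit did not pair the 2 libraries of a rat. The difference was 0.25 ± 0.23 (SE) on the log2 scale for Igf1r, with an interval of -0.21 to 0.72 and an unadjusted p of 0.279. For all 5 members the adjusted p from edgeR was 0.999, and 0 of 12980 genes were called, or 0%. Without adjustment 0 members and 389 genes were below 0.05, and DESeq2 and limma-voom called 0 genes. With the animal as a block in edgeR 0 genes were called, 585 were below 0.05 without adjustment, and the smallest adjusted p of a member was 0.936. The larger age difference of Igf1r in gastrocnemius is therefore not shown to be particular to that muscle.

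**Figure D2:**
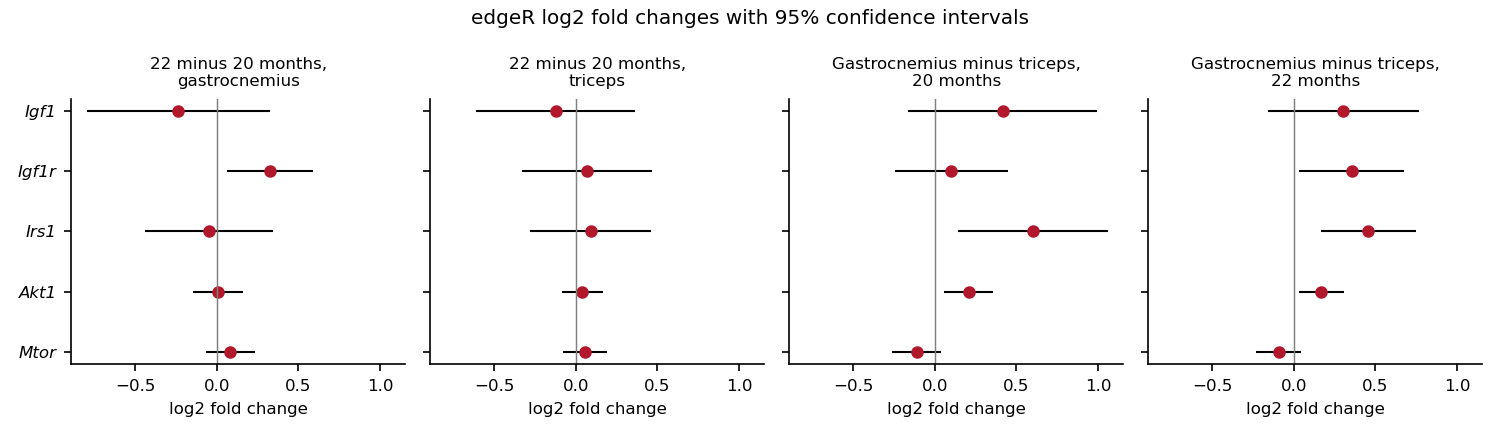
Log2 fold changes from edgeR (points) with their 95% confidence intervals (lines) for the 5 genes in 4 comparisons, on 1 horizontal scale. The fits between muscles did not pair the libraries of a rat. The intervals of the age differences include 0 except for Igf1r in gastrocnemius (0.06 to 0.59). Between muscles the intervals for Irs1 and Akt1 lie above 0 at both ages, and that for Igf1r does at 22 months (0.03 to 0.68).

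The muscles were then compared, as gastrocnemius minus triceps, within each age. Irs1 and Akt1 were the members that most clearly differed, both higher in gastrocnemius, and neither was called by the main fit. At 20 months 0 of 5 members were called, where 467 of 12426 genes, or 3.76%, were. DESeq2 and limma-voom called 0 of the 5 as well, and 2 members, Irs1 and Akt1, had an unadjusted p under 0.05 by edgeR, as 24.9% of all genes did. Irs1 had a log2 fold change of 0.60 ± 0.22 (SE) with gastrocnemius at 38.6 ± 15.4 CPM and triceps at 25.5 ± 9.84 CPM (SD, n = 10 for each), with an adjusted p of 0.0883. Akt1 had 0.21 ± 0.07 (SE) at 122.5 ± 15.5 and 107 ± 6.93 CPM (SD, n = 10 each), with an adjusted p of 0.0724. Without both libraries of replicate 7 the log2 fold changes were 0.61 for Irs1 and 0.20 for Akt1, with adjusted p of 0.0716 and 0.0818. The triceps library of that rat was not left out alone here.

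At 22 months 2552 of 12565 genes, or 20.3%, were called by edgeR. The counts of the 2 ages come from separate fits, and the interaction of age and muscle called 0 of 12980 genes. A wider difference between the muscles at 22 months is therefore not shown. Of the 5 members 0 were called. For 3 of them, Irs1, Akt1 and Igf1r, the p before adjustment was below 0.05, where it was for 43.8% of all genes. Irs1 had a log2 fold change of 0.46 ± 0.14 (SE) with gastrocnemius at 37.2 ± 10.2 CPM and triceps at 27.3 ± 5.82 CPM (SD, n = 10 for each), and its adjusted p of 0.0155 was just above the limit. Igf1r had 0.36 ± 0.16 (SE) with an adjusted p of 0.0827, at 8.07 ± 1.49 and 6.33 ± 1.86 CPM (SD, n = 10 each). The gastrocnemius libraries in it are the same as those of the age comparison, so the 2 differences of Igf1r share their data. Akt1 had 0.17 ± 0.07 (SE) with an adjusted p of 0.0498.

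With the animal as a block, so that both muscles of a rat were compared with each other, Irs1 was called at 22 months, at 0.44 ± 0.10 (SE) with an adjusted p from edgeR of 0.00360. The block called 2647 genes, or 21.1%. DESeq2 also called Irs1, at 0.45 with an adjusted p of 0.00859, while it called 25.4% of all genes, and limma-voom called 0 of the 5. With a share of this size in the background, a call of 1 member in 5 does not set the pathway apart from other genes. At 20 months the block called 0 of the 5 members and 506 of 12426 genes. The smallest adjusted p of a member at that age was 0.0287 with the block and 0.0724 without it, both from edgeR. The median absolute log2 fold change of the 5 members was 0.21 at 20 months and 0.30 at 22 months, beside 0.14 and 0.20 for all genes tested. The signed medians of all genes were 0.00 and 0.01, which TMM scaling holds near 0, so they are no measure of the usual size of a change.

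The same differences were taken within each rat on log2 CPM (prior count 2) and tested by exact two-sided sign-flip permutation tests, in which the sign of each animal's difference is reversed in all combinations. There were 10 such tests, and their p-values are not adjusted. They were run on the members only, so the share of all genes that would pass them is not known. In the unpaired edgeR fits, 24.9% of all genes at 20 months and 43.8% at 22 months had an unadjusted p under 0.05. A small p here therefore does not set a member apart from other genes. Irs1 was higher in gastrocnemius in 9 of 10 rats at each age. The mean difference was 0.60 ± 0.19 (SE, n = 10, exact permutation p = 0.0176) at 20 months and 0.43 ± 0.11 (SE, n = 10, exact permutation p = 0.00391) at 22 months. The exception at 20 months was replicate 6, at -0.80, with 25.6 CPM in gastrocnemius and 44.6 CPM in triceps. The exception at 22 months was replicate 1, at -0.03.

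Akt1 was higher in gastrocnemius in 9 of 10 rats at 20 months and in all 10 at 22 months. Its mean difference was 0.19 ± 0.06 (SE, n = 10, exact permutation p = 0.0117) at 20 months and 0.16 ± 0.04 (SE, n = 10, exact permutation p = 0.00195, the smallest that 10 pairs can give) at 22 months. These are folds of 1.14 and 1.12, small beside those of Irs1, 1.52 and 1.35, but with a narrow spread between rats. The single-rat differences of Akt1 ran from -0.11 to 0.45 at 20 months and from 0.01 to 0.37 at 22 months.

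Igf1r was higher in gastrocnemius in 5 of 10 rats at 20 months and in 9 of 10 at 22 months. The mean difference was 0.12 ± 0.15 (SE, n = 10, exact permutation p = 0.445) and then 0.39 ± 0.12 (SE, n = 10, exact permutation p = 0.00977). Between the ages these differences did not differ beyond their spread, by 0.27 (permutation test, p = 0.176). Igf1 was higher in gastrocnemius in 7 of 10 rats at each age, by 0.38 ± 0.27 (SE, n = 10, exact permutation p = 0.174) and 0.28 ± 0.21 (SE, n = 10, exact permutation p = 0.221). Its single-rat differences were the widest of the 5 genes and ran both ways, from -1.19 to 1.505 at 20 months and from -1.04 to 1.14 at 22 months.

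Mtor went the other way. It was lower in gastrocnemius in 6 of 10 rats at each age, by a mean of -0.13 ± 0.06 (SE, n = 10, exact permutation p = 0.0625) at 20 months and -0.10 ± 0.04 (SE, n = 10, exact permutation p = 0.0449) at 22 months. The direction for Mtor at 22 months depended on the scaling and was 0.09 with library totals in place of TMM. With library totals the median log2 fold change of all genes was 0.11 at 20 months and 0.20 at 22 months between muscles, and 0.14 and 0.06 between ages in gastrocnemius and triceps, where it was 0.00 to 0.01 with TMM, so values under that scaling are to be read relative to these medians.

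Over both ages together, a test added after the data were examined, Irs1 was higher in gastrocnemius in 18 of 20 rats by 0.52 ± 0.11 (SE, n = 20, exact sign-flip permutation p = 0.000269) and Akt1 in 19 of 20 by 0.17 ± 0.03 (SE, n = 20, exact sign-flip permutation p = 5e-05). Igf1r was higher by 0.26 ± 0.10 (SE, n = 20, exact sign-flip permutation p = 0.0155), in 14 of 20 rats. Igf1 was higher by 0.33 ± 0.17 (SE, n = 20, exact sign-flip permutation p = 0.0649), also in 14 of 20. Mtor was lower by -0.11 ± 0.03 (SE, n = 20, exact sign-flip permutation p = 0.00406), in 12 of 20 rats, but was 0.04 with library totals. The test over both ages was not run on other genes either, so these p-values have no background share beside them.

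**Figure D3:**
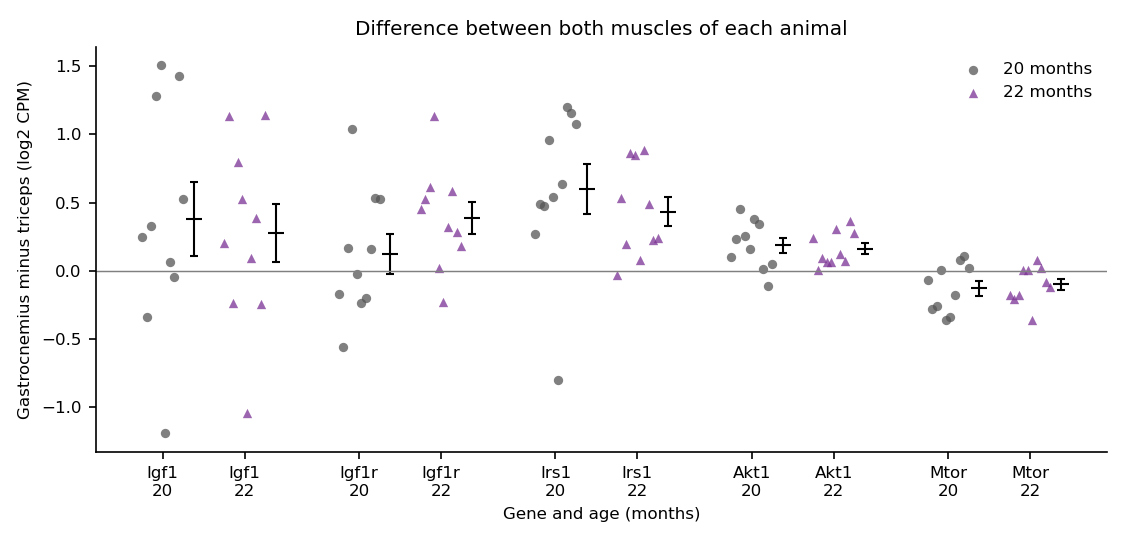
Difference in log2 CPM between gastrocnemius and triceps of the same rat (vertical axis) for each gene at 20 months (grey circles) and 22 months (purple triangles), with the mean and SE of 10 rats beside each set of points. Irs1 and Akt1 lie above 0 in 9 of 10 rats or more at each age, Igf1 runs from -1.19 to 1.505 at 20 months, and the lone low point of Irs1 at 20 months is replicate 6 at -0.80.

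The level of a gene in one muscle was compared with its level in the other across the 20 rats. Pearson's r was positive for all 5 genes, 0.25 for Igf1, 0.39 for Igf1r, 0.36 for Irs1, 0.38 for Akt1 and 0.48 for Mtor, and Spearman's rho was 0.07, 0.42, 0.28, 0.29 and 0.48. Only Mtor had an unadjusted p under 0.05 (permutation test of r, p = 0.0305, and of rho, p = 0.0317), and over the 5 relations the adjusted values of r were between 0.146 and 0.289. The r of Mtor was 0.48 without the 2 rats farthest from the gastrocnemius median, and within ages it was 0.39 at 20 months and 0.56 at 22 months. With library totals the r of Mtor was 0.11 (permutation p = 0.636), so the relation depends on the scaling. The r of Igf1 without the 2 farthest rats was -0.14. The 95% interval of r for Igf1 over all 20 rats was -0.22 to 0.62. Without replicate 7 of triceps at 20 months, r was 0.11 for Igf1 and 0.48 for Mtor over 19 rats.

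The members were then correlated with each other across the 20 rats within each muscle, which made 20 relations. Igf1, Igf1r and Irs1 had positive values in all 3 pairings in both muscles. In triceps r was 0.61 between Igf1 and Igf1r (permutation p = 0.00427), 0.60 between Igf1 and Irs1 (p = 0.00500, permutation test) and 0.58 between Igf1r and Irs1 (p = 0.00755, permutation test). Spearman's rho was 0.62, 0.58 and 0.59, with permutation p of 0.00470, 0.00914 and 0.00732. The adjusted p of r over the 20 relations was 0.0478 for each of the 3. In gastrocnemius r was 0.43, 0.45 and 0.41 for the same pairs, and rho 0.43, 0.42 and 0.36. Their permutation p for r was 0.0562, 0.0431 and 0.0757, and the adjusted p was 0.123 to 0.168. Whether the values differ between muscles was not tested.

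Replicate 7 of triceps at 20 months, which PC1 placed within the gastrocnemius range, was the highest triceps library of its age for Igf1 and for Igf1r. Without it, r in triceps fell to 0.53, 0.53 and 0.52 for the 3 pairs, and the adjusted p rose to 0.0801 for each. By Pearson's r 4 of the 20 relations had an adjusted p under 0.05 with this library and 0 had one without it. Without the 2 rats farthest from the median of the first gene named in each pair, r in triceps was 0.46 (permutation p = 0.0553), 0.54 (permutation p = 0.0196) and 0.65 (permutation p = 0.00402). The r of Igf1 with Igf1r was thus lower without those rats, but leaving them out also narrows the range of Igf1. Within ages r in triceps was 0.66, 0.70 and 0.62 at 20 months and 0.59, 0.50 and 0.58 at 22 months. In gastrocnemius it was 0.68, 0.44 and 0.73 at 20 months and 0.52, 0.49 and 0.13 at 22 months. None of these values within an age had an adjusted p under 0.05, and the lowest adjusted p was 0.193.

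Mtor in triceps was also correlated with the receptor and the adaptor. Its r was 0.57 with Igf1r (permutation p = 0.00956, adjusted 0.0478) and 0.54 with Irs1 (permutation p = 0.0151, adjusted 0.0603), and its rho was 0.45 (permutation p = 0.0514) and 0.68 (permutation p = 0.00131, adjusted 0.0262). Without replicate 7 of 20 months, its rho with Irs1 was 0.72 (permutation p = 0.000700, adjusted 0.0140). The value with Igf1r was not stable. Without the 2 rats farthest from the Igf1r median r was 0.23 (permutation p = 0.361), though leaving out such rats also narrows the range. Without replicate 7 it was 0.62 (permutation p = 0.00453, adjusted 0.0607). Within ages it was 0.42 at 20 months and 0.68 at 22 months, with adjusted permutation p of 0.405 and 0.279. The value with Irs1 was 0.56 without the 2 farthest (permutation p = 0.0154). In gastrocnemius the r of Mtor with Igf1r and Irs1 was 0.20 and 0.30.

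Akt1 was correlated negatively with Igf1, Irs1 and Mtor in both muscles on the TMM scale, with r from -0.12 to -0.37, and with Igf1r in triceps, at -0.50 (permutation p = 0.0234, adjusted 0.0781). With library totals all of these turned positive, between 0.10 and 0.30, so no direction is given for Akt1. The 3 pairings of Igf1, Igf1r and Irs1 were between 0.55 and 0.69 with library totals over both muscles. Under that scaling r was higher than with TMM in every relation, and 11 of the 20 had an adjusted p under 0.05. Differences in composition shared by the genes of a library remain in these values. Staying positive there is therefore no added support for the 3 pairings.

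**Figure D4:**
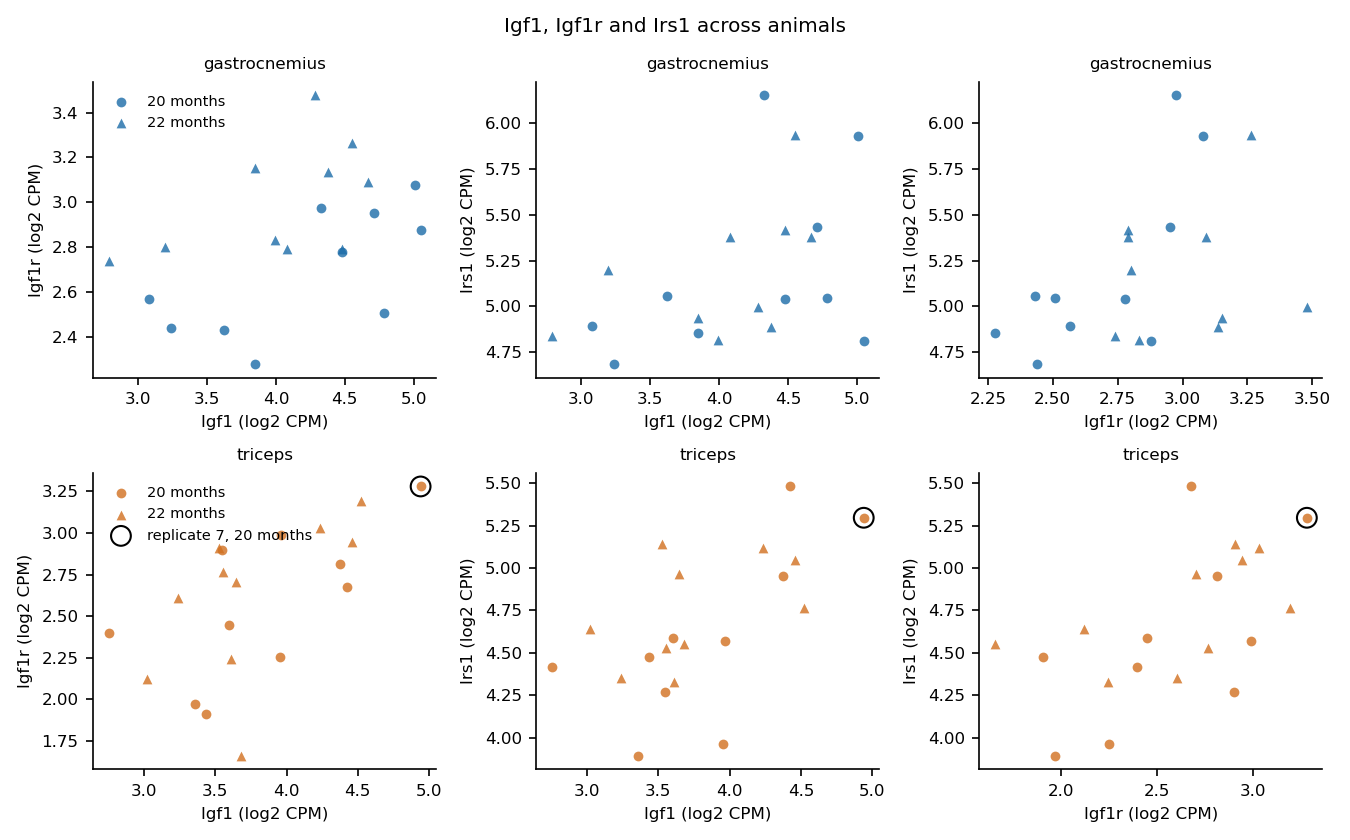
Log2 CPM of Igf1, Igf1r and Irs1 against each other in gastrocnemius (upper row) and triceps (lower row), with circles for rats of 20 months and triangles for rats of 22 months. The ringed circle is replicate 7 of triceps at 20 months; r in triceps is 0.61, 0.60 and 0.58 with it and 0.53, 0.53 and 0.52 without it.

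**Figure D5:**
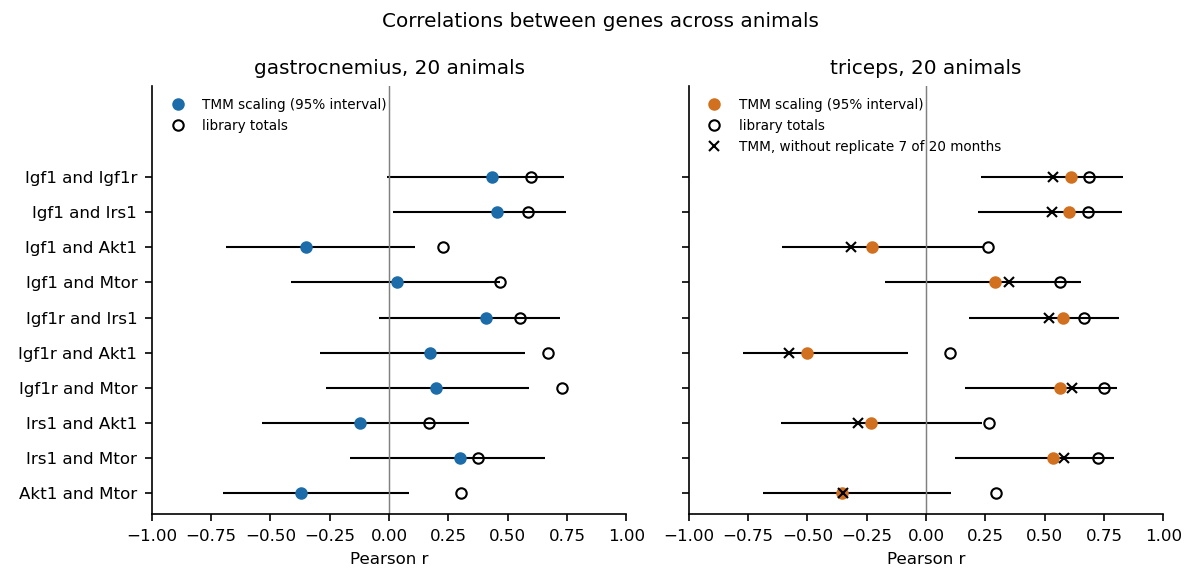
Pearson's r across 20 rats for each pair of genes in gastrocnemius and triceps, with filled points and 95% intervals for TMM scaling, open circles for library totals, and crosses for triceps without replicate 7 of 20 months. The pairs of Igf1, Igf1r and Irs1 are above 0 under each. With library totals every pair is above 0, including all 7 pairs with Akt1 that are below 0 on the TMM scale.

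The genes whose pattern was most like that of each member were found over all 40 libraries as deviations from the group means, among the 9756 genes that averaged 5 CPM or more. They are given by identifier, since the table does not pair identifiers with names, and as a description with no test. The closest to Igf1 was ENSRNOG00000018282 at r = 0.88, and the next 2 were at 0.85 and 0.84. The closest to Igf1r was ENSRNOG00000017707 at 0.73 and the closest to Irs1 was ENSRNOG00000013780 at 0.68. The closest to Akt1 was ENSRNOG00000019442 at 0.87 and the closest to Mtor was ENSRNOG00000018183 at 0.85. No member was among the 3 closest genes of another. Igf1 was the 91st closest gene to Igf1r (r = 0.58) and the 92nd closest to Irs1 (r = 0.54), and Igf1r was the 105th closest to Irs1 (r = 0.53). In the reverse direction Igf1r was the 605th and Irs1 the 826th closest to Igf1, and Irs1 was the 221st closest to Igf1r. All genes of a library share its scaling factor, so such values also hold what genes share through depth and composition.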

How the data were processed

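RNA from gastrocnemius and triceps of 20 rats was sequenced after extraction with a miRNeasy kit and preparation with a TruSeq RNA v2 kit, per the labels. The authors deposited raw read counts per gene, as 1 table of 32545 Ensembl identifiers by 40 libraries with no normalization, and all 40 columns were used. The submitters' processing notes name CASAVA 1.8, STAR 2.3.0e, HTSeq and the build Rnor_6.0. The study's methods name kallisto for its own expression values, a different counting method. The kit does not mark strand, so reads of a gene and of an antisense partner cannot be told apart.

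Differential expression was tested with edgeR 4.0.16 in R 4.3.3 (quasi-likelihood F-test, two-sided). Genes with 1 CPM in at least 10 libraries of a comparison were kept, libraries were TMM-scaled, and p-values were adjusted over all genes tested (Benjamini-Hochberg). Each comparison was fitted on its own 20 libraries, and the interaction of age and muscle on all 40. Alternatives were DESeq2 1.42.0, limma 3.58.1 (voom), other scalings and filters, a replicate block and leaving out each replicate. Differences within animals and correlations were computed in Python 3.11.15 on log2 CPM with a prior count of 2 (alternative 0.5), by exact sign-flip tests or 100000 permutations. Scripts were tested on simulated data.

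The pairing of muscles comes from the animal identifier in the labels. Deviations from the group means, over all genes, correlated between both muscles of an animal with a median r of 0.17 at 20 months and 0.16 at 22 months, against -0.03 between different animals at each age. The correlation was over 0.1 in 5 of 10 animals and 7 of 10, and its lowest values were -0.33 and -0.08. It was highest for the animal's own other muscle in 5 of 10 and 4 of 10. Different rats with the same number at both ages were also over 0.1 in 5 of 10 pairs in each muscle. The pairing therefore rests on the labels and not on these values. The labels give no batch or date.

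The members, the lists and the tests were chosen with earlier results of these data known. The symbols of the 5 members came with their identifiers. The RefSeq gene table used for names (47357 genes) holds no Ensembl identifiers, so a wider pathway list and lists of muscle and cell type markers were not analysed here. The rule for naming other genes took the 3 most like each member by Pearson's r. The test over both ages together and the values without replicate 7 were added after the data were examined.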

Additional observations from a re-analysis of the deposited data

Results flagged for a closer look

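Irs1 in gastrocnemius at 22 months had 1 library far from the others. Replicate 7 was at 61.1 CPM, with the next library at 42.7 CPM and the lowest at 28.1 CPM, so the gap above the next was 0.557 of the whole range, above Dixon's 95% critical value for 10 samples. Without both libraries of replicate 7 the log2 fold change of Irs1 between muscles at 22 months was 0.40, with an adjusted p from edgeR of 0.0206.

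The difference of Irs1 between both muscles at 20 months had 1 rat far from the others. Replicate 6 was at -0.80 on the log2 scale, with the next rat at 0.27 and a gap of 0.532 of the range. Without replicate 6 the log2 fold change between muscles at 20 months was 0.79 in edgeR, with an adjusted p of 0.0270. Of 30 sets of 10 values examined, 2 passed that value, and chance alone passes about 5% of such sets.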

How the results depend on the processing

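The fits reported called 0 members in every comparison, so direction could be checked for called members only where an alternative made a call. Of those calls 0 had the opposite sign, which says little about the uncalled values. Of 570 alternative fits of a member in a comparison, 27 had the opposite sign to the fit reported, each with an adjusted p of at least 0.290. Members called between muscles at 22 months were 0 in the fit reported, 1 with DESeq2 and 1 with the animal as a replicate block (Irs1 at 0.44). With library totals 2 were called (Irs1 and Akt1), as were 3465 of 12565 genes. At an adjusted p under 0.05 there were 2 (Irs1 and Akt1), beside 4265 of 12565 genes. In 1 fit of all 40 libraries 0 members passed that limit (smallest adjusted p 0.0501), as 4436 of 12980 genes did. Counts of members are to be read beside these shares. With library totals the paired difference of Igf1 over both ages was 0.48, and that of Mtor was 0.092 at 22 months and 0.0403 over both ages, opposite to the TMM scale. Relations between members with an adjusted p under 0.05 numbered 4, 11 with library totals, 5 as deviations from the age means, and 0 without replicate 7 of triceps at 20 months. The relation added by the age means was Igf1 with Igf1r in gastrocnemius (r = 0.61). The causes were not tested. Between muscles, genes called at 20 months numbered 467 (297 higher and 170 lower in gastrocnemius), 878 with DESeq2 and 425 with library totals (323 and 102), and 206 to 525 without 1 animal. At 22 months they numbered 2552 (1318 and 1234), and 3465 with library totals (2830 and 635). The replicate number does not mark a shared animal between ages, and as a block it brought 0 calls of members for age in either muscle. Correlations of same-numbered rats were over 0.1 in 5 of 10 pairs in each muscle, and 2 of 10 in gastrocnemius and 3 of 10 in triceps were highest for their own number. Depth limits Igf1r most, at 48 counts in its lowest library.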

Other observations

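Rats that share a replicate number at 20 and 22 months are different animals, yet the members had similar values in some of them. After the data were examined, the level of each member at 20 months was correlated with that of the same-numbered rat at 22 months over 10 numbers, which made 10 relations. Igf1 in gastrocnemius had r = 0.78 (permutation p = 0.00663, adjusted 0.0519) and rho = 0.61 (permutation p = 0.0669), with r = 0.30 without the 2 farthest rats. Mtor in triceps had r = 0.77 (permutation p = 0.0104, adjusted 0.0519) and rho = 0.59 (permutation p = 0.0809), with r = 0.53 without the 2 farthest. Replicate 6 had more Igf1 in triceps than in gastrocnemius at both ages, with differences of -1.19 and -1.04 on the log2 scale, the lowest of each age. Irs1 in gastrocnemius was at 61.0 CPM in replicate 7 of 20 months and at 61.1 CPM in replicate 7 of 22 months. Replicate 8, however, was the highest at 20 months, at 71.1 CPM, and the lowest at 22 months, at 28.1 CPM. Over the 10 numbers Irs1 in gastrocnemius had r = 0.26 (permutation p = 0.467) and rho = 0.01. None of the 10 relations had an adjusted p under 0.05, and the labels do not say what a number stands for between ages.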
